A study of Mus musculus with 8 samples.

Results

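A set of 10 genes was followed as stage markers of natural killer (NK) cell maturation: 6 of the mature stage (*Cma1*, *Ly6c2*, *Spn*, *Lgals1*, *Anxa1* and *Rap1gap2*) and 4 of the early stage (*Thy1*, *Cd7*, *Ctla2a* and *Emb*). They were chosen by name, with earlier results of these data known, as 10 of the 54838 gene identifiers in the count files. All 10 passed the filter on low counts, as did 13903 genes in all. RNA was sequenced in 8 libraries of splenic NK cells, 4 labelled hNK from WT FVB/n mice and 4 labelled teNK from MMTV-PyMT mice, to ask how NK cells of animals with tumours differ from those of healthy donors. MMTV-PyMT mice carry the polyoma virus middle T oncogene under the promoter of the mouse mammary tumour virus, which is active in mammary epithelium. All cells were sorted from spleen as CD45+/CD49b+/CD3- and kept for 12 to 16 h in medium with added cytokines. The sources used here give neither the background strain of the MMTV-PyMT line, nor the age of any mouse, nor which cytokines were added or how many animals each library holds. Cells were isolated and cultured separately for each replicate, but the labels do not say whether from different mice. The p-values therefore measure the spread between these libraries, part of which may be technical.

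NK cells gain their effector program in a series of stages. In the mouse, the early stage keeps genes shared with other innate lymphocytes and T cells, and the late stage gains receptors, granule genes and heavily glycosylated surface proteins such as CD43. The spleen holds cells of all these stages side by side, so a sorted NK sample is a mixture of them.

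Of the 6 mature-stage genes, 6 rose in teNK, by 1.47-fold (*Anxa1*) to 4.85-fold (*Ly6c2*), beside 26.4% of all genes tested that were called higher (edgeR quasi-likelihood test, Benjamini-Hochberg adjusted p under 0.05). Of the 4 early-stage genes, 3 fell, by 1.22-fold (*Emb*) to 3.29-fold (*Ctla2a*), beside 25.6% of all genes called lower. The other early-stage gene, *Cd7*, went against its stage label and rose 1.58-fold. The median log2 fold change was 1.37 over the mature-stage genes, -0.81 over the early-stage genes and -0.02 over all genes tested. All 10 were thus called in one direction or the other, beside 51.9% of all genes. In 7 of the 10 the 4 teNK libraries lay wholly above the 4 hNK libraries (24.1% of all genes tested) and in 3 wholly below (22.4%), so that no gene of the 10 overlapped, beside 46.5% of all genes without overlap. Against a minimum change of 1.5-fold, 7 of the 10 were called, beside 15.4% of all genes: 5 mature-stage genes were higher (9.33% of all genes), and *Thy1* and *Ctla2a* were lower (6.11%). *Anxa1*, *Cd7* and *Emb* were not called past that size. Since the genes were chosen with earlier results of these data known, the counts beside these shares are descriptions and not tests. In bulk RNA of this kind, fewer cells of a stage and less RNA of a gene per cell cannot be told apart.

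**Figure D1:**
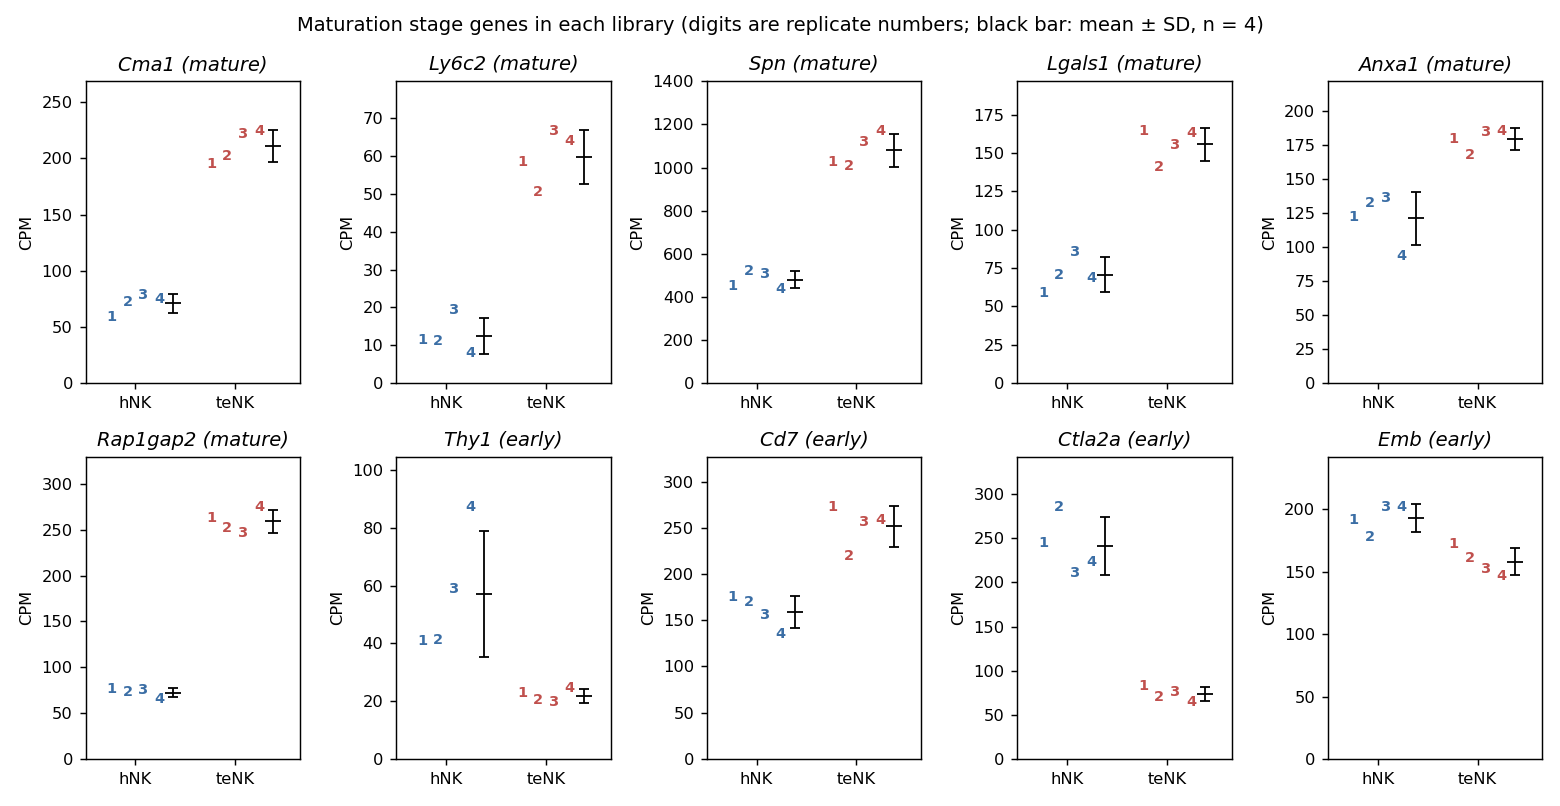
Read counts per 1000000 reads on genes (CPM, vertical axes starting at 0) of the 10 genes in each library, with digits for the replicate number, hNK in blue and teNK in red, and a black bar for the mean ± SD of 4 libraries. In every panel the teNK libraries lie above or below all hNK libraries, and *Thy1* in hNK spreads from 40.8 to 87.3 CPM.

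The hNK libraries held 5202131 to 12419324 reads on genes and the teNK libraries 13111043 to 16209895. Pearson's r of log2 CPM across genes, as a description, was 0.982 or more between libraries of a group and 0.929 to 0.940 between libraries of different groups. Technical repeats of the sequencing are mentioned for the teNK libraries alone, so the layout of sequencing cannot be told apart from the group. Of the 10 genes fixed as NK defining, all had reads in every library; 8 rose, *Eomes* fell and *Fcer1g* was not called. Markers of other cells were also higher in teNK: the summed level of 10 platelet genes was 18.0 to 41.9 CPM in hNK and 175 to 298 CPM in teNK, and that of 10 B and plasma cell genes 0.953 to 5.61 CPM and 40.5 to 63.4 CPM. The 10 neutrophil genes had no read in hNK and summed to 1.71 to 7.63 CPM in teNK. The part of these cells in the results was not tested.

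*Ly6c2* had the largest rise of the 10. It encodes a Ly-6C antigen, a small surface protein held by a lipid (GPI) anchor and found on monocytes and on subsets of lymphocytes. *Ly6c2* (ENSMUSG00000022584, chromosome 15, 75108158 to 75111970, reverse strand, GRCm38) measured 11.5, 11.2, 19.3 and 7.95 CPM in hNK replicates 1 to 4 and 58.4, 50.4, 66.5 and 63.9 CPM in teNK replicates 1 to 4. Every teNK library was above every hNK library, and hNK replicate 3 stood above the other hNK libraries. The log2 fold change was 2.28 ± 0.16 (SE, edgeR adjusted p = 4.42e-09). Its coefficient of variation (SD over mean) was 38.6% in hNK, where counting error alone came to at most 15.1% in the shallowest count, and 11.9% in teNK.

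*Ly6c2* has a neighbour of similar sequence, *Ly6c1*, with 0 reads in hNK and 12 reads in all teNK libraries. Of all 50-base windows in the annotated transcripts of *Ly6c2*, 13.9% also occur in *Ly6c1*, and reads from those stretches cannot be assigned to one of the genes. The promoters of both genes are shown because one gene was read at many times the count of the other. Each window runs from 250 bases before to 50 bases after the RefSeq start site that lies furthest upstream (build GRCm38.p6, both on the reverse strand, chr15:75111922-75112221 for *Ly6c2* and chr15:75048788-75049087 for *Ly6c1*). Capitals mark a match to the RUNX letters TGTGGT or their reverse complement.
Ly6c2: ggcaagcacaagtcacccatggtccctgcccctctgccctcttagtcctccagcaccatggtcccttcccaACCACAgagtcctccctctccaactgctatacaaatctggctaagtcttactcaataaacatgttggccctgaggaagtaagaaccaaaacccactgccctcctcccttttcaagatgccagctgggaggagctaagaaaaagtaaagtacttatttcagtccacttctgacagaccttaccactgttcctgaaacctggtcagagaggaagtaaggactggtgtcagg
Ly6c1: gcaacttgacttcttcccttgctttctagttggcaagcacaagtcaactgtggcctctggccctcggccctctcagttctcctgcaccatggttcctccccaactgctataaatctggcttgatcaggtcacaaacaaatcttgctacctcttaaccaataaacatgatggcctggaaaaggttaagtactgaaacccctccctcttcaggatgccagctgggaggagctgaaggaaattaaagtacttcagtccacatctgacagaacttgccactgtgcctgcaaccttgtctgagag
The 2 windows were identical at 208 of 266 aligned bases (78.2%). *Ly6c2* held 1 RUNX match, 179 bases before its start, and *Ly6c1* held none, where 16.9% of 27025 promoters (1 per gene) hold at least 1. A match describes these letters only.

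Among the rest of the Ly6 family, *Ly6e*, a broadly expressed member, went from 173 ± 26.2 to 199 ± 14.8 CPM (SD, n = 4), and did not pass (log2 fold change 0.21 ± 0.09, edgeR adjusted p = 0.0678). Over 16 alternatives its adjusted p ran from 0.00741 to 0.527, and 4 of them called it higher. *Ly6d*, which early B cells express, rose from 0.0864 to 1.77 CPM in the libraries that also had more B cell markers. *Ly6g* and *Ly6h* had no read in any library, which allows up to 3 counts per library, or 0.185 to 0.577 CPM. Monocytes and plasmacytoid dendritic cells also carry Ly-6C. Of 12 monocyte and macrophage genes, 4 were tested: *Lyz2* (lysozyme) rose from 0.459 ± 0.320 to 6.95 ± 2.13 CPM, *Ms4a6c* rose from 62.0 ± 4.50 to 121 ± 9.25 CPM, *Ccr2* fell and *Cd68* was not called. Among the untested, *Adgre1*, *Fcgr1* and *C1qa* had at most 4 reads in any library. Of 8 plasmacytoid dendritic cell genes, 5 were tested, of which 2 rose, 2 fell and 1 was not called. *Spib* rose from 0.171 ± 0.148 to 2.21 ± 0.697 CPM, and *Tcf4* also rose, with a log2 fold change of 0.37. *Cox6a2* fell from 25 to 31 reads in each hNK library to none in any teNK library. *Runx2* also fell, with a log2 fold change of -0.45. *Siglech*, untested, had at most 6 reads in any library. The part of these cells in the *Ly6c2* result was not tested. The summed level of the 12 monocyte and macrophage genes, most of it from *Ccr2*, was 607 to 802 CPM in hNK and 502 to 547 CPM in teNK.

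*Rap1gap2* encodes a GTPase-activating protein that switches off RAP1, the small GTPase that turns integrins on. *Rap1gap2* (ENSMUSG00000038807, chromosome 11, 74383356 to 74610915, reverse strand) measured 76.0, 73.0, 75.0 and 65.4 CPM in hNK and 263, 252, 247 and 275 CPM in teNK. The groups were far apart, with coefficients of variation of 6.64% and 4.82%. Its log2 fold change was 1.84 ± 0.07 (SE, edgeR adjusted p = 1.48e-12).

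Other genes of the RAP1 switch mostly rose as well: of 13 tested, 10 were called higher, beside 26.4% of all genes, and *Sipa1l1* lower. Past 1.5-fold only 2 of the 13 were higher, *Rasgrp2* and *Rap1b*, beside 9.33% of all genes. *Rasgrp2*, an exchange factor that turns RAP1 on, was at 27.4 ± 3.81 CPM in hNK and 272 ± 13.5 CPM in teNK (log2 fold change 3.31 ± 0.09, edgeR adjusted p = 4.44e-14). *Rap1b*, the main RAP1 gene of blood cells, rose from 471 ± 81.2 to 1484 ± 81.0 CPM. *Rasgrp2* and *Rap1b* are also abundant in platelets, whose markers rose in the same libraries. The part of platelets in these results, and in that of *Rap1gap2*, was not tested. *Sipa1l1*, another RAP GTPase-activating protein, fell from 285 ± 19.1 to 167 ± 10.3 CPM. *Rap1gap*, the closest relative of *Rap1gap2*, had 4 reads in hNK and 39 in teNK and was not tested. Both an activator and an inactivator of RAP1 thus rose, and the median over the 13 genes was 0.35 against -0.02 over all genes.

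*Cma1* encodes chymase, a serine protease best known from mast cell granules. *Cma1* (ENSMUSG00000022225, chromosome 14, 55941451 to 55944675, reverse strand) measured 59.2, 72.4, 78.0 and 75.2 CPM in hNK and 195, 202, 222 and 224 CPM in teNK. The lowest teNK library was 195 CPM and the highest hNK library 78.0 CPM. On the log2 scale the change was 1.57 ± 0.08 (SE, edgeR adjusted p = 1.20e-10).

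The 7 other proteases listed here for the chymase locus, a list without the granzymes, were near 0 in the same libraries. *Gzmb* (granzyme B), further along chromosome 14 (56258838 to 56262260), was not near 0. It was at 554 ± 148 CPM in hNK and 452 ± 20.5 CPM in teNK and was not called. *Mcpt1*, *Mcpt2*, *Mcpt4*, *Mcpt9* and *Ctsg* (cathepsin G) had no read in any library. *Mcpt8*, a basophil protease, had at most 5 reads per library and *Cma2* at most 1. Basophils share the sort phenotype CD49b+/CD3-. Of 12 mast cell and basophil genes, 11 had too few reads to be tested, *Tpsab1* and *Mcpt4* had no read, and the summed level of the list was 0.249 to 1.26 CPM in hNK and 3.13 to 4.97 CPM in teNK, far under that of *Cma1*. The 1 gene of the list tested was *Gata2*, which megakaryocytes also express and which rose from 0.0611 to 2.19 CPM.

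*Spn* encodes CD43 (leukosialin), a long sialic acid-rich surface protein that appears as NK cells mature. *Spn* (ENSMUSG00000051457, chromosome 7, 127132232 to 127137823, reverse strand) was the most abundant of the 10 genes by CPM, at 453, 520.2, 505 and 439 CPM in hNK and 1026, 1006, 1119 and 1167 CPM in teNK. The lowest teNK library, 1006 CPM, was far above the highest hNK library, 520.2 CPM. This gave a log2 fold change of 1.17 ± 0.08 (SE, edgeR adjusted p = 2.07e-09).

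Of 7 tested genes for CD43's relatives, anchors and glycosylation enzymes, 3 rose, 1 fell and 3 were not called. *Msn* (moesin), which ties CD43 to the actin cortex, rose from 1061 ± 85.4 to 1470.0 ± 63.9 CPM, and *C1galt1*, which builds the core of its O-glycans, rose by 0.38 ± 0.08 on the log2 scale. *Cd44*, another adhesion molecule that binds moesin, rose by 0.55 ± 0.07. *Gcnt1*, which branches those O-glycans, fell by 0.45 on the log2 scale (SE 0.08). *Selplg* (PSGL-1), a sialomucin like CD43, was at 738 ± 89.0 CPM in hNK against 741 ± 24.7 CPM in teNK and was not called, with a log2 fold change of 0.0048 ± 0.081.

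*Lgals1* encodes galectin-1, a secreted lectin that binds beta-galactoside sugars on lymphocytes. *Lgals1* (ENSMUSG00000068220, chromosome 15, 78926725 to 78930465, forward strand) measured 58.9, 70.2, 85.8 and 68.3 CPM in hNK and 164, 141, 155 and 163 CPM in teNK. No library of one group fell within the range of the other. The difference on the log2 scale was 1.15 ± 0.09 (SE, edgeR adjusted p = 2.44e-08).

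Other galectins were split. Of 6 genes tested, *Lgals9* and *Lgals8* were called higher by less than 1.5-fold, *Lgals3* and *Lgals3bp* lower, and 2 were not called. *Lgals3bp*, counted in this list, encodes a protein that binds galectin-3 and is not itself a galectin. The call of *Lgals8* was lost under 8 of 16 alternatives. *Lgals3* (galectin-3), which had been listed among the mature NK genes, was at 251 ± 33.2 CPM in hNK and 27.2 ± 2.03 CPM in teNK (log2 fold change -3.21 ± 0.09, edgeR adjusted p = 1.12e-13). In read counts, *Lgals1* over *Lgals3* was 0.207 to 0.367 in the 4 hNK libraries and 5.51 to 6.27 in the 4 teNK libraries. The mean log2 ratio differed by 4.34, given with no test since one gene rose and the other fell without overlap.

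*Anxa1* encodes annexin A1, which binds membranes in the presence of calcium and, once released, acts on formyl peptide receptors. *Anxa1* (ENSMUSG00000024659, chromosome 19, 20373428 to 20390944, reverse strand) measured 122, 133, 136 and 93.2 CPM in hNK and 179, 168, 185 and 185 CPM in teNK. The groups did not overlap, but hNK replicate 4 was well under the other hNK libraries and lowered the hNK mean. The log2 fold change was 0.56 ± 0.09 (SE, edgeR adjusted p = 7.00e-05), and 0.46 without hNK replicate 4.

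The annexins split evenly, with 4 of 8 tested relatives higher and 4 lower. *Anxa6* rose from 254 ± 11.4 to 552 ± 44.6 CPM and *Anxa2* from 192 ± 11.5 to 326 ± 16.1 CPM, whereas *Anxa7* fell from 85.8 ± 6.03 to 53.9 ± 2.38 CPM. *S100a10*, the partner of annexin A2, rose by 0.49 ± 0.06 on the log2 scale, and *S100a11*, the partner of annexin A1, was not called (-0.045 ± 0.071, edgeR adjusted p = 0.622). The ratio of *Anxa1* to *Anxa2* reads was 0.473 to 0.695 in hNK and 0.542 to 0.563 in teNK, a log2 difference of -0.18 that did not pass (exact two-sided permutation test over libraries, p = 0.143, the same after adjustment over 4 ratios chosen after their values were seen). No read fell on the receptor genes *Fpr1*, *Fpr2* and *Fpr3* in any library.

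**Figure D2:**
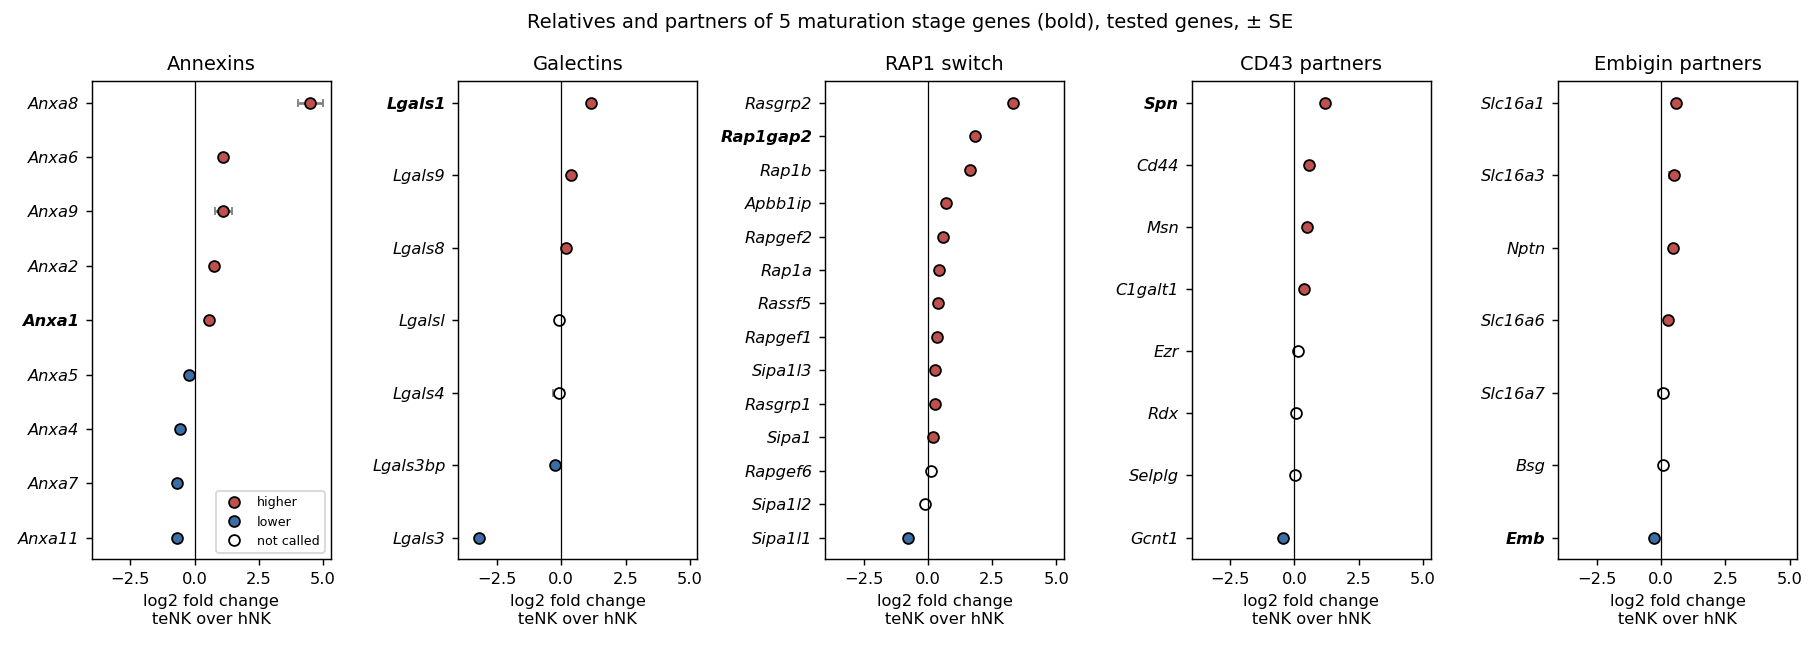
Log2 fold change, teNK over hNK, with its SE (horizontal axes) for the tested relatives and partners of *Anxa1*, *Lgals1*, *Rap1gap2*, *Spn* and *Emb*, whose names are in bold; red is called higher, blue called lower and white not called. Annexins and galectins lie on both sides of 0, with *Lgals3* at -3.21, while most RAP1 genes lie above 0.

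Of the early-stage genes, *Ctla2a* fell furthest. It encodes a small protein that resembles the propeptide of cathepsins and inhibits cathepsin L. *Ctla2a* (ENSMUSG00000044258, chromosome 13, 60934155 to 60936625, reverse strand) measured 245, 285, 210.3 and 223 CPM in hNK and 82.9, 70.3, 76.0 and 64.4 CPM in teNK. The highest teNK library was under every hNK library by more than the whole hNK range. Its log2 fold change was -1.72 ± 0.09 (SE, edgeR adjusted p = 2.31e-10).

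Its near copy *Ctla2b* fell less. *Ctla2b* measured 11.8, 11.9, 10.7 and 9.58 CPM in hNK and 10.1, 7.75, 7.55 and 6.65 CPM in teNK, with overlapping groups and a log2 fold change of -0.47 ± 0.15 (edgeR adjusted p = 0.0128). The ratio of *Ctla2a* to *Ctla2b* reads was 19.6 to 24.0 in hNK and 8.18 to 10.1 in teNK, without overlap. The log2 difference was -1.24 (exact two-sided permutation test, p = 0.0286, the smallest that 4 against 4 allows). Over the 4 ratios, chosen after their values were seen, the adjusted p of this test was 0.0381. That family counts *Lgals1* over *Lgals3* and *Thy1* over *Cd7*, given with no test, so the adjusted value is too lenient and no conclusion is drawn from it. Of the 50-base transcript windows of *Ctla2a* 25.8% also occur in another gene, and of those of *Ctla2b* 69.0%, mostly in *Gm49391*. That gene overlaps exons of both copies on the same strand and had 0 reads. How reads shared by the copies or with *Gm49391* were counted is not given. Both copies may lack such reads, so their ratio is uncertain and the *Ctla2b* values are the less certain.

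The promoters of the copies are shown because the genes fell by different amounts from nearly the same sequence (reverse strand, chr13:60936576-60936875 for *Ctla2a* and chr13:60897398-60897697 for *Ctla2b*). Capitals mark TGANTCA, the letters AP-1 binds, and TGACGT, the first 6 letters of a cAMP response element.
Ctla2a: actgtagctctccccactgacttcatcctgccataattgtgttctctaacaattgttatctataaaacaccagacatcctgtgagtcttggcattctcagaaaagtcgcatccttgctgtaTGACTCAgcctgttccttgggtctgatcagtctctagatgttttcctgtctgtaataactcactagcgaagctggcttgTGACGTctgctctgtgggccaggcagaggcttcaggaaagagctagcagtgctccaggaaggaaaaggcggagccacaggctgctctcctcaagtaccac
Ctla2b: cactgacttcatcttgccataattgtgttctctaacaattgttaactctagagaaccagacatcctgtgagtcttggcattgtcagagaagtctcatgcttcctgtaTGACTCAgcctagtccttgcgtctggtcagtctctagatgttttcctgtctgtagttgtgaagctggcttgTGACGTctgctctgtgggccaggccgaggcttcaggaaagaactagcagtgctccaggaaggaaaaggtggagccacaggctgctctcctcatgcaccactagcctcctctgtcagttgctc
The windows were identical at 255 of 278 aligned bases (91.7%). Each held 1 AP-1 match and 1 match to TGACGT, at 129 and 50 bases before the start in *Ctla2a* and 143 and 72 bases before it in *Ctla2b*. Over all promoters 7.92% hold the first and 7.59% the second. The motifs were chosen after the sequences had been seen.

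*Thy1* encodes Thy-1 (CD90), a small glycoprotein with a GPI anchor on T cells, innate lymphoid cells and part of the NK lineage. *Thy1* (ENSMUSG00000032011, chromosome 9, 44043384 to 44048579, forward strand) measured 40.8, 41.2, 58.9 and 87.3 CPM in hNK and 22.8, 20.3, 19.6 and 24.6 CPM in teNK. The groups did not overlap, but hNK spread widely: its coefficient of variation was 38.3%, where counting error came to at most 5.29%. On the log2 scale the change was -1.34 ± 0.19 (SE, edgeR adjusted p = 1.50e-05), and -1.08 without hNK replicate 4 (edgeR adjusted p = 2.82e-06).

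The library with the most *Thy1*, hNK replicate 4, was also the highest hNK library for *Cd3d*, *Cd3e*, *Cd3g* and *Bcl11b*, 4 of the 8 tested T cell genes, where it was the highest hNK library for 24.2% of all genes. *Cd3g*, a chain of the T cell receptor complex that NK cells can also transcribe, measured 14.9, 15.1, 18.1 and 32.7 CPM in hNK and 24.1, 19.9, 26.6 and 21.5 CPM in teNK. The other 4 did not peak there: *Cd6* was lowest in replicate 4, at 1.99 CPM against 2.14 to 2.64 CPM, and *Trac*, *Lat* and *Cd28* lay within the range of the other hNK libraries. Of the 16 other early NK genes, 6 were highest in replicate 4 and 5 were lowest there. Between the groups, 3 of the 8 tested T cell genes were higher in teNK, *Cd6* was lower and 4 were not called. The summed level of all 12 T cell genes, with *Cd28* the largest part, was 116 to 149 CPM in hNK and 142 to 164 CPM in teNK. *Cd3d* rose from 2.25 ± 0.930 to 4.91 ± 0.527 CPM, and *Cd3e* and *Cd3g* were not called (edgeR adjusted p = 0.287 and 0.283), except *Cd3g* without hNK replicate 4 (log2 fold change 0.54, adjusted p = 0.00174). *Cd4*, *Cd5*, *Cd8a* and *Cd8b1* had at most 2 reads in any library. Group 2 innate lymphoid cells carry much Thy-1. Their 8 markers summed to 331 to 347 CPM in hNK, mostly from *Rora* and *Gata3*, and 349 to 370 CPM in teNK, mostly from *Klrg1* and *Gata3*. Of the 4 tested, *Rora*, a nuclear receptor these cells need, fell with *Thy1* from 205 ± 11.1 to 73.4 ± 6.10 CPM, *Klrg1* rose, and *Gata3* and *Il1rl1* were not called. *Rora* and *Il1rl1* were also highest in hNK replicate 4 among the hNK libraries, whereas *Il5*, *Il13*, *Areg* and *Arg1* had at most 3 reads in any library. The part of these cells in the *Thy1* result was not tested.

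**Figure D3:**
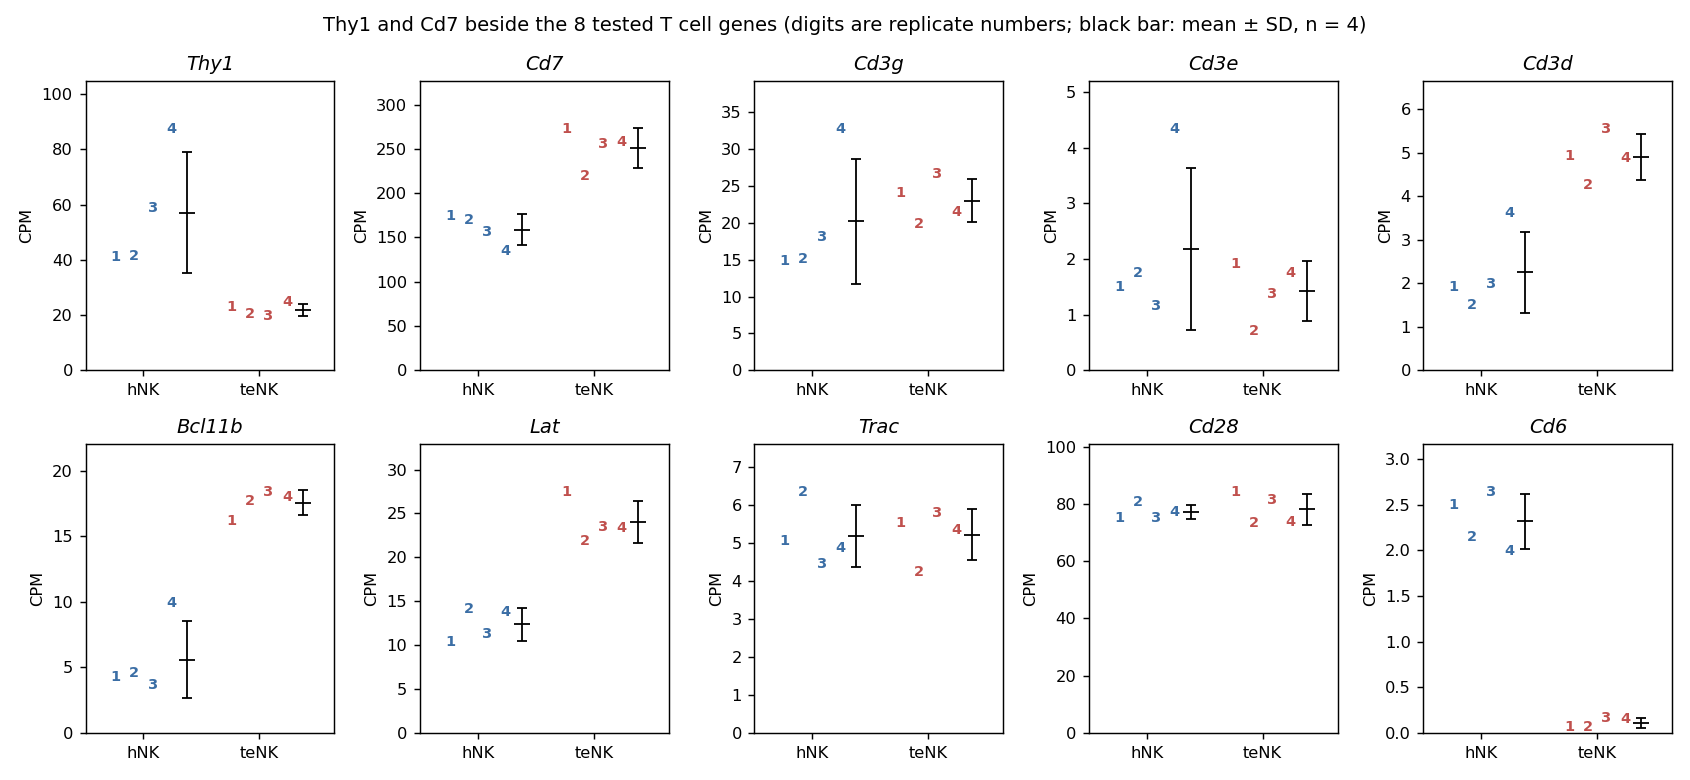
CPM (vertical axes starting at 0) of *Thy1*, *Cd7* and the 8 tested T cell genes in each library, with digits for the replicate number and a black bar for the mean ± SD of 4 libraries. Replicate 4 is the highest hNK library for *Thy1* and for 4 of the 8 T cell genes (*Cd3g*, *Cd3e*, *Cd3d* and *Bcl11b*), and the lowest for *Cd7* and *Cd6*.

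*Emb* encodes embigin, an escort protein that brings monocarboxylate transporters to the cell surface. *Emb* (ENSMUSG00000021728, chromosome 13, 117208536 to 117274415, forward strand) measured 191, 178, 202 and 202 CPM in hNK and 172, 161, 153 and 147 CPM in teNK. The highest teNK library, 172 CPM, lay just under the lowest hNK library, 178 CPM. This gave a log2 fold change of -0.29 ± 0.07 (SE, edgeR adjusted p = 0.00186), the smallest of the 10 genes. In counts simulated at these depths, 30% of changes of 1.25-fold and 84% of changes of 1.5-fold were recovered. Only 160 genes were called in that simulation, whereas 51.9% of all genes tested were called in the data. The cutoff behind an adjusted p is stricter where fewer genes change, so these rates do not carry over to this fit.

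Of 6 tested genes for embigin's relatives and transporters, 4 rose and 2 were not called. *Nptn* (neuroplastin), a relative of embigin, rose from 271 ± 27.5 to 374 ± 12.3 CPM, and *Slc16a1*, the lactate and pyruvate transporter MCT1, from 30.0 ± 5.98 to 44.3 ± 2.95 CPM. *Slc16a6* and *Slc16a3* were called higher with log2 fold changes of 0.29 and 0.49, and lost the call under 2 of 16 and 11 of 15 alternatives. *Bsg* (basigin), the other main escort of these transporters, was not called, with a log2 fold change of 0.072 ± 0.075 (edgeR adjusted p = 0.446).

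*Cd7*, the early-stage gene that rose, encodes a surface protein of the immunoglobulin family found on T and NK cells and their precursors. *Cd7* (ENSMUSG00000025163, chromosome 11, 121036747 to 121039418, reverse strand) measured 175, 169, 156 and 135 CPM in hNK and 272, 219, 256 and 258 CPM in teNK. Every teNK library was above every hNK library, and hNK replicate 4, highest for *Thy1*, was lowest for *Cd7*. The difference on the log2 scale was 0.66 ± 0.08 (SE, edgeR adjusted p = 5.71e-06). An antisense gene, *Gm11775*, overlaps an exon of *Cd7* and had at most 19 reads in any library, and *Gm17509* overlaps *Emb* likewise with at most 10.

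*Thy1* and *Cd7* thus moved apart. The ratio of their reads was 0.233 to 0.646 in hNK and 0.0766 to 0.0954 in teNK, a difference in mean log2 ratio of -1.98, likewise with no test. *Pik3r1*, a subunit of the PI3 kinase that CD7 engages, rose from 402 ± 35.3 to 991 ± 14.3 CPM. *Sectm1a*, which encodes a ligand of CD7, had no read in any library.

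The promoters of *Anxa1*, which rose, and *Emb*, which fell, are shown because both hold the letters of a T-box motif. T-box factors such as T-bet and EOMES direct NK cell development. The windows are chr19:20390622-20390921 on the reverse strand and chr13:117220323-117220622 on the forward strand, and capitals mark AGGTGTG or its reverse complement.
Anxa1: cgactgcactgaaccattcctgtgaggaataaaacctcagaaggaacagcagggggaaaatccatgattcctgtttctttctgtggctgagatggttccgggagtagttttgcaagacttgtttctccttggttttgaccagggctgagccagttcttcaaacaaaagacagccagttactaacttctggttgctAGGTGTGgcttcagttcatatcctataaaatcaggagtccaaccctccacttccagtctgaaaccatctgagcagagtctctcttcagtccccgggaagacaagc
Emb: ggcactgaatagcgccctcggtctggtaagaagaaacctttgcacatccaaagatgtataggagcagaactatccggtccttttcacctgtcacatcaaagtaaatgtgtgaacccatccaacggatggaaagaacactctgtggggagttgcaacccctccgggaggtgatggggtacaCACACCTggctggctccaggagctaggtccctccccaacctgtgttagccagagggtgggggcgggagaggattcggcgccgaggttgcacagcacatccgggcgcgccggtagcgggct
The match lay 55 bases before the start in *Anxa1* and began 70 bases before it in *Emb*. Promoters were found for 7 of the 10 genes in the RefSeq table. Of those 7, 2 held the T-box letters, 2 the RUNX letters (*Cma1* and *Ly6c2*), 1 the AP-1 letters and 1 TGACGT, where 5.90% of all promoters hold the T-box letters. *Spn* and *Rap1gap2* held none of the 4 motifs in the window read.

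**Figure D4:**
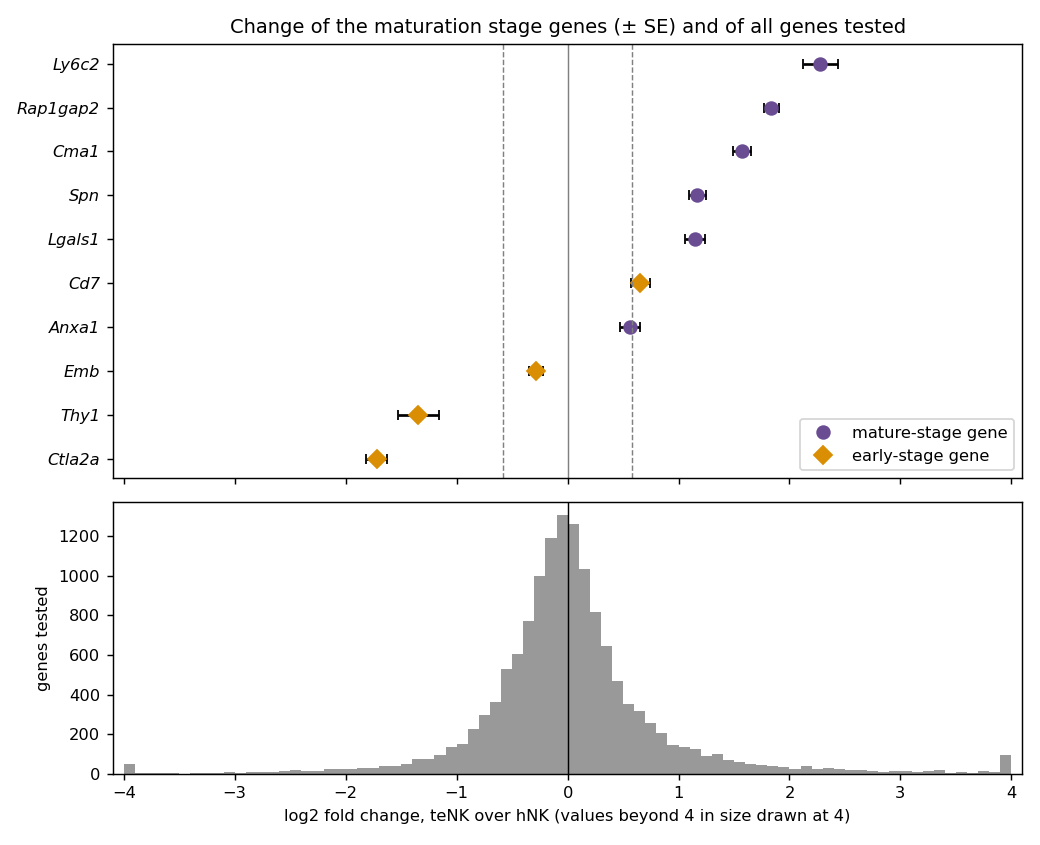
Upper panel, log2 fold change, teNK over hNK, with its SE for the 10 genes (purple circles mature stage, orange diamonds early stage; dashed lines at 1.5-fold); lower panel, the distribution over all 13903 genes tested. Of the mature-stage genes, 5 lie past the upper dashed line, *Anxa1* and the early-stage gene *Cd7* lie close to it, and *Ctla2a* and *Thy1* lie past the lower one.

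Per kilobase of exon (RPKM, CPM divided by the length of all annotated exons), which allows genes to be compared, the order of levels changed between the groups. In hNK the early-stage genes *Cd7* (140 ± 15.6 RPKM) and *Ctla2a* (114 ± 15.6) stood first, followed by *Spn* (102 ± 8.47), *Lgals1* (78.4 ± 12.3) and *Cma1* (65.3 ± 7.63). The ranges of neighbours overlapped along these 5. *Anxa1* (41.6), *Emb* (28.0), *Thy1* (19.0), *Rap1gap2* (10.1) and *Ly6c2* (4.55) followed, and of these only *Emb* and *Thy1* overlapped with each other.

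In teNK *Spn* (231 ± 16.3 RPKM) and *Cd7* (222 ± 19.9) led, ahead of *Cma1* (193 ± 13.1) and *Lgals1* (172 ± 11.8), again with overlapping neighbours. *Anxa1* (61.6) came next, and *Rap1gap2* (36.2) overlapped with *Ctla2a* (34.8). *Emb* (22.9) and *Ly6c2* (21.8) overlapped, and *Thy1* (7.29) was last. *Ctla2a* thus went from rank 2 in hNK to rank 7 in teNK and *Rap1gap2* from rank 9 to rank 6.

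Within hNK, replicate 3 was the highest hNK library for 5 of the 10 genes, 4 of them mature-stage and the other *Emb*. Replicate 4 was the lowest for 4 of the 6 mature-stage genes and for *Cd7*, where it was the lowest for 25.6% of all genes, and the highest for *Thy1*. It was also the lowest hNK library for 10 of 17 other mature NK genes tested.

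Among the other genes of the mature stage, 15 of 17 tested rose, *Lgals3* was called lower and *Gzmb* was not called. Their median log2 fold change was 2.12, against -0.02 over all genes. *Klrg1*, an inhibitory receptor of the last stage, and *S1pr5*, the receptor for exit into blood, had log2 fold changes of 3.91 and 3.21. *Tbx21* (T-bet) had 2.07. Among the other early-stage genes, 10 of 16 fell, 4 rose and *Lef1* and *Gata3* were not called, with a median of -0.44. *Itga1*, *Tnfsf10* and *Ltb* fell by 5.03, 2.04 and 2.03 on the log2 scale. Those that rose included *Xcl1*, *Il7r* and *Cd27*, named after their values were seen. So the early-stage list was split, as the 4 early-stage members were. Both lists were also chosen with earlier results of these data known, so their counts are descriptions.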

How the data were processed

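Poly(A) RNA of 8 libraries (hNK and teNK, 4 each) was sequenced with a stranded kit, per the labels' protocols. The authors deposited raw read counts per Ensembl gene. Per the submitters' processing notes, HISAT2 2.1.0, SAMtools, HTSeq and GRCm38 were used; strand setting and annotation release are not given in the sources used here. The 5 summary lines stayed out of library sizes and tests: reads in no gene were 32.3% to 41.2% and ambiguous reads 1.52% to 2.07% of each library. GENCODE M21 gave symbols, coordinates and exon lengths for 54809 of 54838 identifiers.

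In R 4.3.3 and edgeR 4.0.16, counts were filtered with filterByExpr (13903 genes), scaled with TMM and tested on group alone with the quasi-likelihood test, with Benjamini-Hochberg adjustment at 0.05. The SE of a log2 fold change is its size over the square root of F, and glmTreat tested against 1.5-fold. CPM use TMM factors, and log2 CPM a prior count of 2. The counting errors and the floor of 3 counts do not cover the spread between libraries. Tests on simulated counts (13903 genes) recovered 100% of 50 genes changed 2-fold, with 3 false calls among 160. Promoters are from RefSeq (GRCm38.p6), aligned with Biopython 1.88. Alternatives were DESeq2 1.42.0, limma-voom (limma 3.58.1), other scaling, filters, a replicate block and each library left out.

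The members and gene lists were chosen with earlier results of these data known. Named genes were all members, up to 4 genes with the smallest adjusted p per list, near copies of members, the CD3 genes, and the 3 genes most correlated with *Spn* and *Cd7*. A result that this rule names is not reported here.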

Additional observations from a re-analysis of the deposited data

Results flagged for a closer look

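*Bcl11b*, a transcription factor of the T lineage, stood apart in 1 hNK library: replicate 4 had 9.94 CPM and the others 3.63 to 4.61 CPM, so the gap to the next library took 0.845 of the whole range. *Slc4a1*, an erythroid gene, had 1 read (0.181 CPM) in hNK replicate 4 and none in the other hNK libraries. These were 2 of 156 combinations of gene and group examined, and none of the 20 that concern the 10 stage genes stood out in this way. Many of the genes were named for a small adjusted p, and the combinations share the same libraries, so no chance rate is given.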

How the results depend on the processing

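All 10 stage genes kept their direction and their call under all 16 alternatives, with 6 mature-stage genes higher, 3 early-stage genes lower and, in the 14 alternatives that tested it, 7 past 1.5-fold. Over all genes, 3380 to 3766 were called higher and 3203 to 3497 lower when single libraries were left out. Scaling by library size alone shifted the median of all genes from -0.02 to -0.15 and the share of calls that were higher from 50.7% to 34.6%; with it the log2 fold changes of *Anxa1*, *Cd7* and *Emb* were 0.43, 0.52 and -0.42. With the replicate number as a replicate block, 3581 genes were higher and 3401 lower, and no stage gene changed its call. Same-numbered libraries deviated together with correlations of -0.107 to 0.145 across genes, and only those numbered 3 correlated best with their own number. Whether the numbers mark a shared batch or day cannot be settled from so few libraries. Of 1217 results for 77 named genes under alternatives, 1179 kept direction and call, 21 lost a call, 8 gained one and 9 changed sign, all of genes not called. The sign changes were in *Pik3ca* (-0.048), *Cd68* (-0.067) and *Pecam1* (-0.086) by library size alone, *Col1a2* in DESeq2 (0.012), and, over the fits with a library left out, *Cd68* (-0.075 to 0.18), *Col1a2* (-0.20 to 0.16), *Pecam1* (-0.043 to 0.12) and *S100a11* (-0.097 to 0.011). The cause was not tested.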

Other observations

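Genes whose level followed *Spn* most closely over the 8 libraries were *Fam81a*, *Podxl* (podocalyxin) and *Sorl1*, each with a Pearson r of 0.998 for log2 CPM. *Podxl* rose from 4.14 to 15.5 CPM and *Sorl1* from 168 to 333 CPM. Those closest to *Cd7* were the histone gene *Hist1h1a*, *Tada1* and *Pex6*, with r of 0.99, 0.99 and 0.989. The libraries share 2 groups that lie apart, and 885 of 9415 genes compared had an r over 0.95 with *Spn* and 233 with *Cd7*, so these values are descriptions of that split as much as of the genes.

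*Cox6a2*, a cytochrome oxidase subunit fixed among the plasmacytoid dendritic cell markers, had 25 to 31 reads in each hNK library and none in any teNK library. The other defining marker *Siglech* had at most 6 reads in any library. *Cd6*, fixed among the T cell markers, went from 2.32 ± 0.302 CPM in hNK to 0.111 ± 0.0533 CPM in teNK, against the direction of *Bcl11b*, *Lat* and *Cd3d*, which rose.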
